A study of Mus musculus with 16 samples.

Results

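Bglap, Bglap2 and Bglap3, the 3 osteocalcin genes of the mouse, were followed through 16 RNA sequencing libraries of periodontal ligament. They were found by their symbols and were 3 of 55359 genes in the table (Bglap ENSMUSG00000074483.3, Bglap2 ENSMUSG00000074486.3 and Bglap3 ENSMUSG00000074489.10). They were chosen by measured values of these same data, the lower levels of Bglap and Bglap2 in ligature than in control libraries. That contrast is therefore given below as a description without a test.

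All mice were male C57BL/6J of 9 weeks and wild type, in 4 groups of 4 libraries. Control mice were untreated. In ligature mice a 6-0 silk thread was tied around the second molar of the left maxilla, a model of periodontitis. In trauma mice composite resin raised the biting surface of that same molar, a model of traumatic occlusion, and the ligature plus trauma group had both. The time from treatment to sampling is not given in the sources used here. Whether the libraries of a group stem from separate mice is not stated either, so the p-values measure the spread between these libraries, part of which may be technical.

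Osteocalcin is a small secreted protein of osteoblasts, the cells that build bone, and of odontoblasts and cementoblasts, which build dentin and cementum. It is made late in osteoblast differentiation and is one of the most abundant non-collagen proteins of bone. Vitamin K-dependent carboxylation turns some of its glutamates into Gla residues, which bind calcium in bone mineral. The less carboxylated form circulates, and hormone-like actions have been ascribed to it. In the mouse, Bglap and Bglap2 are the bone-expressed copies, and Bglap3, also called osteocalcin-related gene, lies in the same cluster on chromosome 3.

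The coding sequences are printed because their likeness limits what read counts can say of each copy. Each has 288 bases including the stop codon (GENCODE M21 transcripts, GRCm38). Capitals mark bases that differ from Bglap2 in the first line, and from Bglap in the next lines.
Bglap: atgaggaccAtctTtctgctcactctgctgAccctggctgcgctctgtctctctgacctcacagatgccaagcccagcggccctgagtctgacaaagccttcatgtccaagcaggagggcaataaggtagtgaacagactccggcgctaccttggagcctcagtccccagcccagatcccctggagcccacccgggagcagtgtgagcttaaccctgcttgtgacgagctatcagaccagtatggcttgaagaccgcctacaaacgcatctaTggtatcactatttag
Bglap2: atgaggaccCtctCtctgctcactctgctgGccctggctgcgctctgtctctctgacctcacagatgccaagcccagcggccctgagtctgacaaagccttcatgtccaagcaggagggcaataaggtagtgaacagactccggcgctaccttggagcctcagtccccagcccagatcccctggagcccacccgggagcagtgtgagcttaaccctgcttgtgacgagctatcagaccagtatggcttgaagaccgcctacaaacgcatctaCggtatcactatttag
Bglap3: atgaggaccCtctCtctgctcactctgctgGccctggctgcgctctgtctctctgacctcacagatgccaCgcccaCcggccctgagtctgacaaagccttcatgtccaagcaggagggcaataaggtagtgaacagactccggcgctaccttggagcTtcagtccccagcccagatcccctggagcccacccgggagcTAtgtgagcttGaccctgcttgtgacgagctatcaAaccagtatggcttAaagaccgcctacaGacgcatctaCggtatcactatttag
Bglap and Bglap2 were identical at 98.6% of these bases and differed at 4. Bglap3 differed from Bglap at 13 bases (95.5% identical) and from Bglap2 at 9 (96.9%). Of all 100-base stretches of the Bglap transcript, 56.3% also occurred in a Bglap2 transcript and none in a Bglap3 transcript. Among those of the shortest coding Bglap3 transcript, Bglap3-201, 3.24% occurred in Bglap2. Over stretches of 150 bases, 31.6% of Bglap was shared with Bglap2. How reads that match several genes were counted, and how long they were, is not stated, so the split between Bglap and Bglap2 is uncertain. The osteocalcin sum, the counts of the 3 genes added per library, does not depend on how shared reads were split and is given first in each comparison. Reads dropped for matching several genes would be missing from it too.

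The RefSeq promoter table (GRCm38.p6) held windows for Bglap and Bglap3. The 250 bases before the start of Bglap (chr3:88384467-88384716, minus strand) are shown because Runx and Dlx factors, whose genes are among those measured, are known to act on this promoter.
Bglap promoter: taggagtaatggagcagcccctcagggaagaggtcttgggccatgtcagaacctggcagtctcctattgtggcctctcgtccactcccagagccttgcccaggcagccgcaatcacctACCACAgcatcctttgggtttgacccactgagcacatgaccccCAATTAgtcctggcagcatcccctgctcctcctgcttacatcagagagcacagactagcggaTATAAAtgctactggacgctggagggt
Capitals mark, in order, ACCACA, the core bound by Runx factors, CAATTA, a homeodomain core as bound by Dlx and Msx factors, and TATAAA, the TATA box. They start at -132, -89 and -27 from the start site. These 3 motifs were chosen after the Bglap window had been read, were searched on both strands in windows that also hold 50 bases after the start, and do not overlap each other here. Among 32851 promoter windows of the same length, 16.8% held ACCACA, 8.0% CAATTA and 13.6% TATAAA. None of these exact strings occurred in the 3 windows of Bglap3. Other forms of the motifs were not searched for, and similar letters such as TATATAA and TAATTA do occur in those windows. A match is a description of the sequence and not a bound site.

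The libraries held 58458102 to 77468584 counts each, and 20953 genes passed the expression filter, all 3 osteocalcin genes among them. Ligament markers fitted the labelled tissue in part: Postn ranged from 6008 to 31410 CPM (counts relative to the library total, scaled by the trimmed mean of M-values) and Aspn from 2794 to 14700, while Kera lay between 0 and 1.105. The bone matrix gene Ibsp (3319 to 9965 CPM), the osteoblast factor Sp7 (45.99 to 130.6) and the dentin gene Dspp (60.53 to 2940) were also present in all libraries. The series title names bone, not ligament. In bulk tissue, fewer osteocalcin-making cells and less osteocalcin RNA per cell cannot be told apart. Libraries 2 and 3 of ligature plus trauma, and library 2 of ligature, were shifted to short transcripts. Across genes, their deviation from the gene mean had a Spearman correlation with transcript length of -0.325, -0.333 and -0.39, where the remaining 13 libraries had -0.13 to 0.295. The transcripts of Bglap (440 bases) and Bglap2 (471) are short, so values without these 3 libraries are given beside the differences between groups that include them.

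Osteocalcin RNA was abundant in control and trauma libraries, lowest with the ligature and intermediate with both. The osteocalcin sum was 1869, 3276, 5403 and 5084 CPM in control libraries 1 to 4 and 5492, 3770, 3281 and 3320 CPM in trauma. It was 425.1, 804.6, 398.1 and 851.1 CPM in ligature and 1316, 1835, 2266 and 1096 CPM in ligature plus trauma. No ligature library reached any other library. No ligature plus trauma library reached a trauma library, whereas 15 of 16 control-to-combined pairs were higher in control, because control 1 fell within the combined range. Control and trauma overlapped widely. Among all genes tested, 9.15% had every ligature library below every control library, 7.31% every combined library below every trauma library, and 0.663% every combined library above every ligature library.

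**Figure D1:**
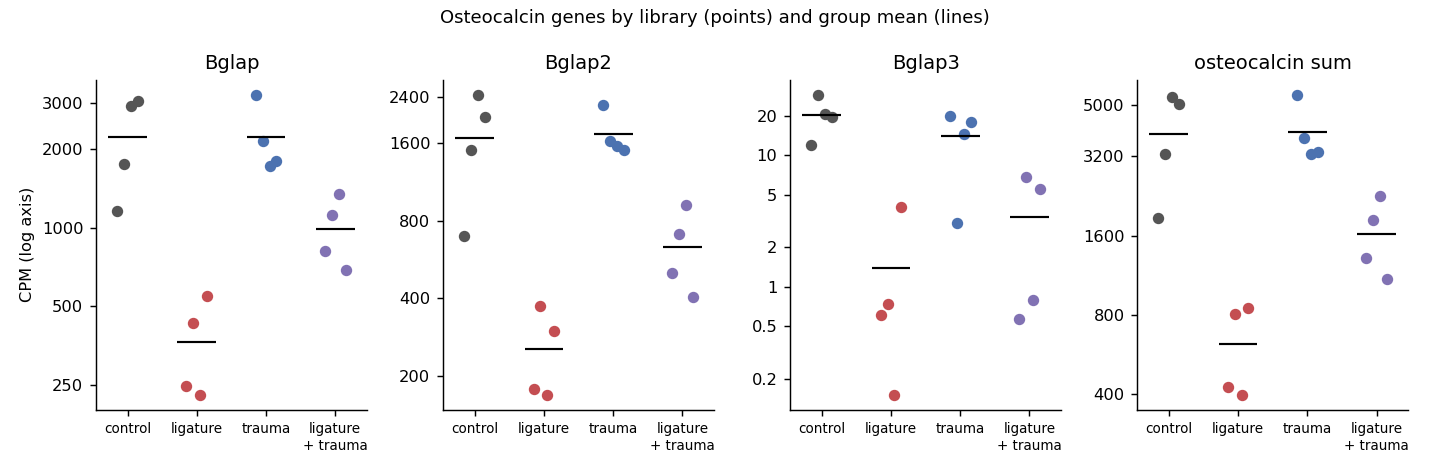
CPM of Bglap, Bglap2, Bglap3 and their sum on log axes (vertical) in the 4 groups (horizontal), with 1 point per library and a line at the group mean. For the sum, ligature lay at 398.1 to 851.1 CPM, ligature plus trauma at 1096 to 2266, and control and trauma overlapped at higher levels.

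Bglap, the main osteocalcin gene, had 1161, 1751, 2928 and 3049 CPM in control and 3232, 2141, 1716 and 1795 in trauma. Its values were 246.2, 430.7, 228.4 and 547.3 CPM in ligature and 812.4, 1115, 1348 and 685.9 in ligature plus trauma. The 4 ligature libraries were the lowest, and the 4 combined libraries lay above them and below all trauma libraries.

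Bglap2, the near-identical copy, had 696.1, 1496, 2455 and 2016 CPM in control and 2240, 1625, 1551 and 1507 in trauma. It had 178.4, 373.2, 169.5 and 299.8 CPM in ligature and 503.4, 712.8, 917.2 and 405.0 in ligature plus trauma. The groups were ordered as for Bglap, with trauma 1 standing above the other trauma libraries.

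Bglap3 was read far less. It had 11.88, 28.79, 20.41 and 19.36 CPM in control and 19.94, 3.067, 14.43 and 18.02 in trauma. The values were 0.6147, 0.7417, 0.1512 and 4.073 CPM in ligature, from 39, 38, 11 and 295 counts, and 0.5658, 6.803, 0.7892 and 5.511 in ligature plus trauma, from 41, 365, 40 and 359 counts. All control libraries exceeded all ligature and all combined libraries. Ligature and combined libraries overlapped, and each of these groups had libraries below 1 CPM beside others severalfold higher.

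On a scale that allows for transcript length (TPM, computed here from the counts), Bglap stood at 7262 ± 2510 (SD, n = 4) in control, 1052 ± 531.4 in ligature, 6655 ± 2973 in trauma and 2486 ± 240.6 in ligature plus trauma. Among 52083 genes with a symbol its TPM ranked 4 to 25 in trauma libraries, 9 to 17 in control, 39 to 52 with both treatments and 54 to 216 with the ligature. Bglap2 was a little lower throughout, with means of 5044 in control, 666.6 in ligature, 4792 in trauma and 1475 in ligature plus trauma on the same scale. Bglap3 (27.95, 1.851, 17.16 and 3.807 in that order of groups, taken over 1047 bases) ranked no higher than 3551. Even at its lowest, Bglap was among the 216 genes with the highest TPM.

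Ligature against control is the contrast that chose the genes. The osteocalcin sum averaged 3908 ± 1651 CPM (SD, n = 4) in control and 619.7 ± 241.3 in ligature, a log2 fold change of -2.66 ± 0.38 (SE), or 6.31-fold lower. Bglap differed by -2.61 ± 0.38, Bglap2 by -2.71 ± 0.39 and Bglap3 by -3.84 ± 0.96. Among all 20953 genes tested, 4.78% were called lower in this contrast (edgeR's quasi-likelihood test, Benjamini-Hochberg adjusted p under 0.05). Ligature plus trauma against control shares the control libraries and is likewise given without a test: -1.26 ± 0.36 for the sum, -1.17 ± 0.36 for Bglap, -1.39 ± 0.37 for Bglap2 and -2.56 ± 0.91 for Bglap3. Without the 3 libraries shifted to short transcripts, ligature against control was -2.83 for the sum, -2.72 for Bglap, -2.97 for Bglap2 and -3.66 for Bglap3. Ligature plus trauma against control was then -1.70, -1.57, -1.88 and -2.73 in the same order. Without ligature 4 alone, Bglap3 in ligature against control was -5.33.

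No difference in osteocalcin was detected between trauma and control. The sum was 3966 ± 1042 CPM in trauma against 3908 ± 1651 in control, a log2 fold change of 0.02 ± 0.36 (edgeR adjusted p = 0.993). The 95% interval of -0.74 to 0.78 still allows changes of moderate size either way. Bglap stood at 0.00 ± 0.36 (edgeR adjusted p = 1). Bglap2 (0.06 ± 0.37, interval -0.72 to 0.83) and Bglap3 (-0.54 ± 0.86, interval -2.35 to 1.28) did not pass either, with edgeR adjusted p-values of 0.982 and 0.899. Trauma against control called 1 gene of all tested, or 0.00477%. At an unadjusted p under 0.05 edgeR gave 1450 genes (6.92%), and DESeq2 called 129 (0.584%).

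Ligature plus trauma against trauma asks for the same ligature in mice that also had the resin, and its fold change uses none of the libraries of the contrast that chose the genes. The estimate of the spread pooled all 16 libraries. The sum was 1628 ± 525.6 CPM with both against 3966 ± 1042 with trauma alone, 2.44-fold lower (log2 fold change -1.28 ± 0.36, 95% interval -2.05 to -0.51, edgeR adjusted p = 0.0499). Bglap2 fell by 1.45 ± 0.37 on the log2 scale, 2.73-fold (edgeR adjusted p = 0.0319). Bglap differed by -1.17 ± 0.36 (interval -1.94 to -0.39), just outside the threshold at an edgeR adjusted p of 0.0776. Bglap3 differed by -2.02 ± 0.89 (edgeR adjusted p = 0.223). For the sum, Bglap and Bglap2, all 4 combined libraries were below all 4 trauma libraries. In this comparison edgeR called 1149 genes (5.48%), 3.27% of all tested as lower and 2.21% as higher, and DESeq2 called 9.87%.

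The call on the sum was at the edge. Fitted on the 2 compared groups alone, the edgeR adjusted p was 0.0329 for the sum and 0.0496 for Bglap. It was lost under 4 of the other settings, and also when any 1 library other than control 1 or ligature 2 was left out (14 of 16 cases). Over these 16 fits the log2 fold change ranged from -1.49 to -1.09 and the edgeR adjusted p from 0.0298 to 0.146. The call on Bglap2 was lost in 6 of 16, without trauma 1, 2 or 3 or ligature plus trauma 1, 2 or 4, with edgeR adjusted p-values of up to 0.093 and log2 fold changes of -1.68 to -1.28. Leaving out the 3 libraries shifted to short transcripts gave -1.72 for the sum (edgeR adjusted p = 0.0788), -1.57 for Bglap (0.119), -1.93 for Bglap2 (0.0465) and -2.19 for Bglap3 (0.408). With the trend on transcript length removed, the values were -1.41 for the sum (edgeR adjusted p = 0.014), -1.36 for Bglap (0.0226) and -1.64 for Bglap2 (0.00412).

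Osteocalcin was higher with both treatments than with the ligature alone, by a margin that did not pass the test over all genes. The sum averaged 619.7 ± 241.3 CPM with the ligature and 1628 ± 525.6 with both, 2.63-fold higher (log2 fold change 1.39 ± 0.36, interval 0.62 to 2.17, unadjusted p = 0.00148, edgeR adjusted p = 1). Bglap differed by 1.45 ± 0.37 (unadjusted p = 0.00114) and Bglap2 by 1.31 ± 0.37 (unadjusted p = 0.00271), both with an edgeR adjusted p of 1. Bglap3 differed by 1.29 ± 0.88, with an interval of -0.58 to 3.15, and this value was 2.77 without ligature 4 and 0.72 without ligature plus trauma 2. The genes were chosen for low values in these ligature libraries. These p-values are therefore favoured by that choice and give no independent support.

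In this comparison edgeR called 0 genes (0%), with 734 (3.50%) at an unadjusted p under 0.05, and DESeq2 called 44 (0.165%), none of the 3 osteocalcin genes among them. DESeq2 gave adjusted p-values of 0.0688 for Bglap, 0.225 for Bglap2 and 0.0976 for the sum. All combined libraries lay above all ligature libraries for Bglap, Bglap2 and the sum. The ligature libraries entered the choice of these genes, which was made for low values there, so this difference is not independent of that choice.

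The most osteocalcin within ligature plus trauma was in libraries 2 and 3, which were shifted to short transcripts. Without them and ligature 2, the sum was 1096 to 1316 CPM in the remaining 2 combined libraries and 398.1 to 851.1 CPM in the remaining 3 ligature libraries, still apart. The log2 fold change was then 1.13 for the sum, 1.15 for Bglap, 1.09 for Bglap2 and 0.92 for Bglap3. With the length trend removed it was 1.2 for the sum, 1.18 for Bglap and 1.09 for Bglap2.

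The interaction, that is the trauma effect in ligature mice less that in mice without a ligature, was 1.37 ± 0.51 on the log2 scale for the sum (interval 0.30 to 2.45, edgeR adjusted p = 1). It was 1.45 ± 0.51 for Bglap (edgeR adjusted p = 0.969), 1.26 ± 0.52 for Bglap2 and 1.82 ± 1.23 for Bglap3 (edgeR adjusted p = 1 for each). Without the 3 libraries shifted to short transcripts it was 1.11 for the sum, 1.15 for Bglap, 1.03 for Bglap2 and 1.47 for Bglap3, and without ligature 4 it was 3.31 for Bglap3. This interaction holds the contrast that chose the genes, so its p-values are not independent of that choice. Over all genes edgeR called 0, with 1032 (4.93%) at an unadjusted p under 0.05, and DESeq2 called 64 (0.258%). The trauma effects with and without a ligature were thus not shown to differ for osteocalcin.

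**Figure D2:**
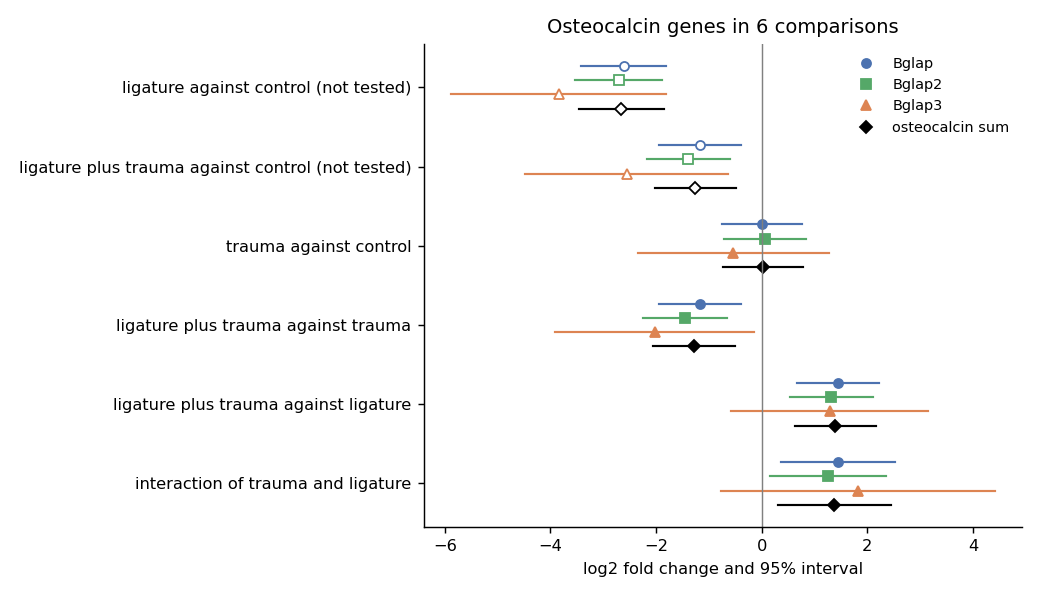
Log2 fold change (horizontal, with 95% intervals as bars) of Bglap, Bglap2, Bglap3 and their sum in 6 comparisons (vertical). Open symbols mark the 2 comparisons that were not tested, and the sum stands at -2.66 for ligature against control, 0.02 for trauma against control, -1.28 against trauma and 1.39 against ligature.

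The shares of the 3 genes in the sum varied between libraries. Bglap made up 52.29 to 64.3% of osteocalcin counts, Bglap2 35.22 to 47.27% and Bglap3 0.03484 to 0.8788% over all libraries. The Bglap2 share was 44.14 ± 2.806% (SD, n = 4) in trauma and 38.63 ± 1.471% in ligature plus trauma, a difference of -5.509 percentage points. Trauma libraries held 40.79 to 47.27% and combined libraries 36.94 to 40.48%, with no overlap.

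Bglap showed the reverse, at 55.5 ± 2.901% and 61.13 ± 1.319%. Both differences had p = 0.02857 in an exact two-sided permutation test, the smallest that 4 against 4 allows, and 0.1286 after adjustment over the 9 share tests. With Bglap3 at 0.8788% of the sum or less, the shares of Bglap and Bglap2 mirror each other and are nearly the same result. From that floor, this pair of tests alone could not pass adjustment over 9. Control (37.25 to 45.66%) and ligature libraries (35.22 to 46.38%) spanned most of the whole range of the Bglap2 share, and no other share test had an adjusted p below 0.5143 (exact permutation). Without the 3 libraries shifted to short transcripts the difference between ligature plus trauma and trauma was -6.55 points for Bglap2 and 6.63 for Bglap. The exact permutation p was 0.1333 for each, the smallest that 2 against 4 allows, so that test could not pass. The uncertain split of shared reads bears on these shares directly.

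Over the 16 libraries log2 CPM of Bglap and Bglap2 had a Pearson correlation of 0.985, and of 0.93 with group means removed. Bglap3 had 0.8 with Bglap and 0.785 with Bglap2, which came down to 0.332 and 0.235 within groups. These correlations are descriptions, since the genes share libraries, scaling and, for the first pair, sequence.

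Other osteoblast genes gave mixed values. Against trauma, ligature plus trauma had 1 gene called higher and 2 lower of 17 tested osteoblast genes (of 18 listed), where 2.21% of all genes were called higher and 3.27% lower. Their median log2 fold change was -0.60 beside -0.02 over all genes tested. Ifitm5, a membrane protein of mineralising osteoblasts, fell by 2.44 ± 0.48 (edgeR adjusted p = 0.00959), from 72.18 to 77.16 CPM in trauma to 9.288 to 19.12 with both. Smpd3, a sphingomyelinase needed for mineralisation, fell by 2.59 ± 0.55 (edgeR adjusted p = 0.0135), and Cthrc1, a secreted collagen triple helix protein, rose by 1.78 ± 0.43 (0.0253).

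The collagen genes Col1a1 (-0.78 ± 0.25, edgeR adjusted p = 0.0888) and Col1a2 (-0.85 ± 0.25, 0.0587) did not pass. Neither did the phosphatase Alpl (-0.46 ± 0.26), the matrix protein genes Ibsp (0.21 ± 0.29) and Spp1 (0.82 ± 0.34), or Sp7 (-0.08 ± 0.22). Of the 9 osteocyte genes none was called (edgeR), beside 5.48% of all genes tested, with 4 above 0, 5 below and a median of -0.01. Dmp1, a matrix protein of osteocytes, stood at 0.84 ± 0.48 and Pdpn at 0.5 ± 0.19. Sost stood at -2.15 ± 1.03, and Fgf23, which reached at most 1.613 CPM in trauma, at -3.9 ± 1.51.

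Ligature plus trauma against ligature showed a different set of values. None of the 17 osteoblast genes was called, but edgeR called 0 of all 20953 genes tested, so calls cannot set these genes apart. Their median was 0.03 where the osteocalcin sum stood at 1.39. Ifitm5 was at 0.03 ± 0.46 and Smpd3 at -0.04 ± 0.52, near 0 with standard errors that leave changes of moderate size possible. Dlx5 was at 0.45 ± 0.24 and Col1a1 at -0.61 ± 0.25, the opposite side of 0. The osteocyte median was 0.49, over 9 genes of which none was called. Trauma against control, with 1 gene called of all tested (0.00477%), had no call in either list. The medians were -0.31 and -0.13.

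**Figure D3:**
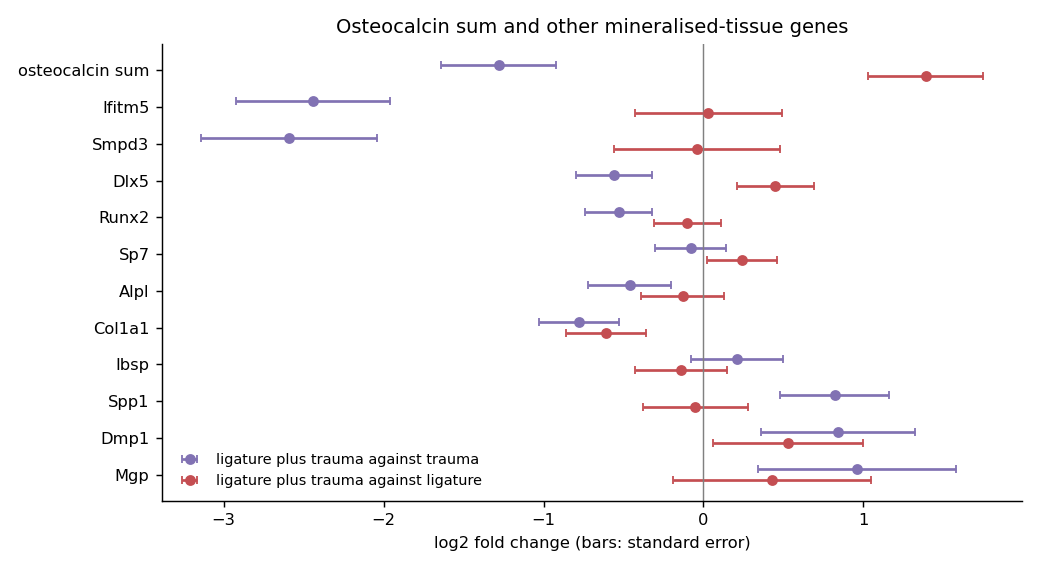
Log2 fold change (horizontal, bars show the standard error) of the osteocalcin sum and 11 genes of mineralised tissue (vertical) with ligature plus trauma against trauma and against ligature. Osteocalcin stands at -1.28 and 1.39, while Ifitm5 stands at -2.44 and 0.03 and Ibsp at 0.21 and -0.14.

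To set osteocalcin against osteoblast genes within each library, the mean log2 CPM of the 17 genes was subtracted from that of the sum. The difference was 3.21 to 3.74 in trauma libraries, 2.60 to 3.61 in control libraries, 2.09 to 3.43 with both treatments and 0.62 to 2.04 with the ligature. Every combined library lay above every ligature library, with means of 2.73 ± 0.58 and 1.42 ± 0.72 (SD, n = 4). That difference is given without a p, since low osteocalcin in these ligature libraries chose the genes. Against trauma (3.53 ± 0.24) the combined group differed by -0.8007 (exact permutation p = 0.05714, adjusted 0.08571 over 3 tests), and trauma differed from control by 0.3375 (exact permutation p = 0.2). Neither passed. The 3 tests include the one against ligature, which makes the adjusted value against trauma smaller than it would be without that test. Combined libraries 2 and 3, shifted to short transcripts, had the highest differences of their group, 2.95 and 3.43. Without the 3 shifted libraries the combined group differed from trauma by -1.26 (exact permutation p = 0.1333, adjusted 0.2) and from ligature by 1.06. That p is the smallest that 2 against 4 allows, so the test against trauma could not pass.

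**Figure D4:**
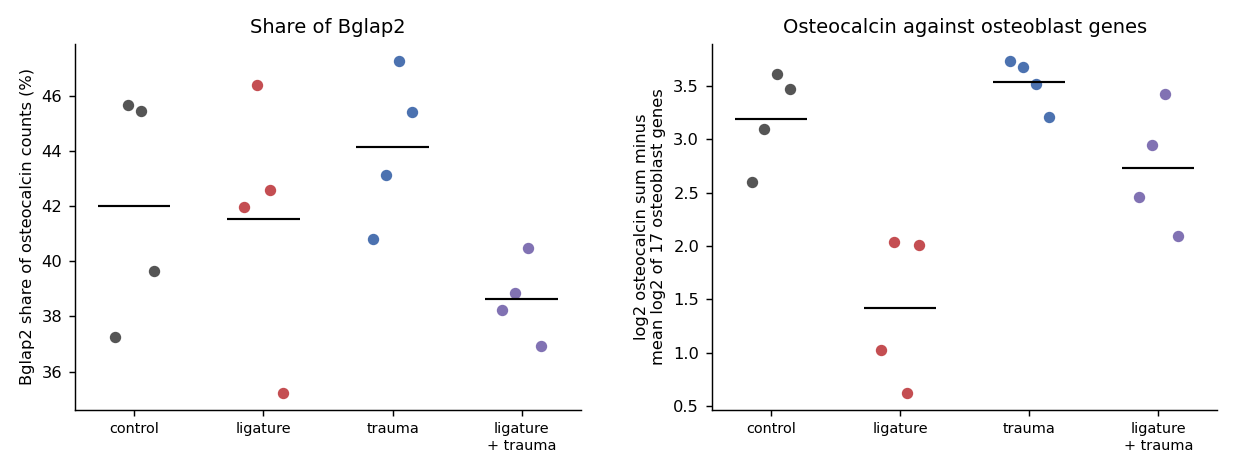
Left, the Bglap2 share of osteocalcin counts in percent; right, log2 CPM of the osteocalcin sum minus the mean log2 CPM of 17 osteoblast genes; groups on the horizontal axes, 1 point per library and a line at the group mean. The Bglap2 share is 40.79 to 47.27% for trauma and 36.94 to 40.48% with both treatments, and the difference to osteoblast genes is lowest in ligature at 0.62 to 2.04.

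Of 20 regulators of osteocalcin transcription, 0 were called higher and 1 lower with ligature plus trauma against trauma, a share near the 5.48% of all genes called. Their median was -0.35. The 1 was Lef1, a Wnt-pathway factor, at -0.97 ± 0.27 and an edgeR adjusted p of 0.04997. Runx2, the master factor of osteoblasts, differed by -0.53 ± 0.21 (edgeR adjusted p = 0.166), Dlx5 by -0.56 ± 0.24 (0.212) and Vdr, the vitamin D receptor, by -1.23 ± 0.43 (0.117). Against ligature none of the 20 was called, where edgeR called 0 of all 20953 genes tested. Runx2 stood at -0.10 ± 0.21 and Vdr at -0.01 ± 0.42, and the median was 0.25. The matching unadjusted edgeR p-values were 0.644 for Runx2 and 0.978 for Vdr.

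The vitamin K cycle equips osteocalcin with Gla residues. Of its 8 genes only Nqo1, a quinone reductase that also answers to oxidative stress, was called against trauma, where it fell by 2.35 ± 0.42 (edgeR adjusted p = 0.0054). Over all genes tested 5.48% were called in this comparison, so 1 call in a list this small says little of the list. The carboxylase gene Ggcx was at -0.14 ± 0.27 and Vkorc1, the reductase that recycles vitamin K, at 0.63 ± 0.41, neither of them called. Among 9 of 14 other Gla protein genes tested, 1 was called: F10, coagulation factor X, which was 0 to 0.3354 CPM in trauma and 2.479 to 4.955 with both (4.91 ± 1.27, edgeR adjusted p = 0.0323). Mgp, the inhibitor of mineralisation in soft tissue, stood at 0.96 ± 0.62, and Gas6, a ligand of Tyro3, Axl and Mer receptors, at -0.65 ± 0.25, both outside the threshold.

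Genes named for osteocalcin receptors and for its decarboxylation were not all detected. Gprc6a, a proposed receptor, had 0 counts in all 16 libraries, and Gpr158, another, was at 0 to 0.7975 CPM in control and at 0 in all ligature libraries. Of 8 tested, Tcirg1, a proton pump subunit of osteoclasts, was called higher against trauma (2.21 ± 0.27) and Ptprv, a phosphatase of osteoblasts, lower (-2.62 ± 0.42, edgeR adjusted p = 0.00331). Over all genes tested 2.21% were called higher and 3.27% lower. Ptprv was 25.3 to 41.32 CPM in trauma and 2.852 to 8.826 with both, and 3.611 to 16.8 with the ligature alone. Against ligature none of the vitamin K, Gla or receptor genes was called, but neither was any other gene (0 of 20953 tested, edgeR).

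Genes that neighbour the osteocalcin cluster were examined as well. Of 12 matched neighbours, all tested, 2 fell and 0 rose with ligature plus trauma against trauma, beside 3.27% and 2.21% of all genes, and their median was -0.13. Those were Rab25 (-3.34 ± 0.78) and Rhbg (-4.95 ± 1.22), both best known from epithelia. Pmf1, the gene next to Bglap, was at 0.43 ± 0.36 (edgeR adjusted p = 0.575).

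Markers of other cells differed between the same groups. With ligature plus trauma against trauma, 11 of 14 osteoclast genes were called higher, and their summed level was 10640 to 13800 CPM against 1475 to 4350. Over all genes tested, 2.21% were called higher and 3.27% lower in this comparison. Taken singly, 5.74% of all genes had every combined library above every trauma library, and 7.31% every combined library below. Of 13 epithelial genes 12 were called lower (881.4 to 3203 against 4862 to 34850 CPM). Cementoblast and odontoblast genes, whose cells make osteocalcin too, had 1 of 9 tested called lower, Odam, which fell by 3.74 ± 0.49 (edgeR adjusted p = 0.0016), and summed to 2405 to 3999 CPM against 6031 to 10190. Odam, a gene of the enamel organ and of the epithelium attached to the tooth, carried that gap: without it the sums were 1999 to 3520 CPM with both and 859.3 to 4193 with trauma, which overlap. Leaving out Odam was chosen after its values were seen. Dmp1 (0.84 ± 0.48), Hacd1 (1.46 ± 0.45) and Ptn (0.67 ± 0.39) of that list stood above 0, and none of the 3 was called. Of the 9 tested, 4 stood above 0 and 5 below, with a median log2 fold change of -0.09. Ligament fibroblast genes had 2 called higher and 2 lower of 15, with sums of 47930 to 71330 and 41470 to 91270 CPM.

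The summed osteoblast list was 42510 to 56550 CPM with both, 48010 to 76240 with trauma and 50600 to 54410 with the ligature. Neutrophil genes had 2 of 11 called higher against trauma (1046 to 5391 against 863.4 to 5140 CPM), beside 2.21% of all genes. Cartilage genes had 1 of 10 lower (337.0 to 438.4 against 579.3 to 787.7), beside 3.27%. Muscle and erythroid genes had 0 called (edgeR). Muscle sums were nevertheless apart, at 14.9 to 166.5 CPM with both and 5.287 to 13.09 with trauma, and 12 of 13 muscle genes stood above 0. Erythroid sums were 3460 to 22040 and 3591 to 7120 CPM, and combined libraries 2 and 3 held 10020 and 22040. Phospho1 was at 0 in all trauma and all combined libraries, and no other marker of these cell lists was at 0 throughout either group. Between ligature plus trauma and ligature, no marker of any list was called, where edgeR called 0 of all 20953 genes tested. The cementoblast and odontoblast sums overlapped there (2405 to 3999 and 1456 to 4119 CPM). The part of these cells in the osteocalcin differences was not tested.

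The 10 genes whose log2 CPM followed the osteocalcin sum most closely over the 16 libraries, of 11039 compared, held none of the osteoblast list. Fhod3, a formin, had a Pearson correlation of 0.928 (0.824 with group means removed), Mill2, an MHC class I-like gene, 0.9 (0.691) and Penk, the proenkephalin gene, 0.897 (0.544). The next were Pcp4, Mllt3, Tmem59, Rasl11b, Sult1a1, Mgl2 and Kif1a, at 0.862 to 0.881. In the osteoblast list Dlx5 came closest, in place 43 (0.808), Ifitm5 was in place 76 (0.784), and Ibsp was in place 8541 with -0.341. The erythroid genes compared had 0.407 to 0.543, and 0.681 to 0.754 with group means removed. Pcp4, a calmodulin-binding protein gene, averaged 33.13 CPM in control, 1.181 in ligature, 14.26 in trauma and 9.685 in ligature plus trauma, the same order of groups as osteocalcin but for control above trauma. These correlations hold the differences between groups, share the scaling of each library and are descriptions.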

How the data were processed

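The values deposited by the authors are raw read counts per gene in whole numbers, for 16 libraries of periodontal ligament. Build GRCm39 and the tools HISAT2 2.2.1, StringTie 2.1.7, DESeq2 1.32.0, FastQC 0.11.9 and Trimmomatic 0.39 are listed without roles in the submitters' processing notes. No source used here gives the counter, the annotation release or the strand setting, so overlapping or antisense transcripts cannot be told apart. Symbols, for 52083 genes, and transcripts came from GENCODE M21 (GRCm38).

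Counts were tested with edgeR 4.0.16 (quasi-likelihood, TMM scaling, expression filter with minimum count 10 by group) in R 4.3.3, with all groups in 1 fit of 12 residual degrees of freedom and Benjamini-Hochberg adjustment over 20953 genes. A second fit replaced the 3 osteocalcin rows by their sum. CPM uses the scaled totals. Levels per length used the median coding transcript length. On simulated counts for ligature plus trauma against trauma, 13% of 100 genes changed 2-fold and 78% of 100 changed 4-fold were recovered. The simulation held 20953 genes, gave all the same spread and changed fewer of them than were called in the data. These rates therefore need not hold for the real comparison.

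Alternatives were DESeq2 1.42.0, its size factors, no filter, a stricter filter (50 counts in 4 libraries), the compared groups only, a replicate block, the length trend removed (spline, 5 degrees of freedom), 3 libraries left out together, and each library left out in turn. A marker sum without Odam was added after seeing the data. At these depths the spread between libraries, not counting error, limits Bglap and Bglap2.

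The members and lists were chosen with earlier results of these data known. Named were the 3 genes, up to 4 members of each list with the lowest p against trauma, a panel of 13 genes, and the 10 genes most like the sum (mean log2 CPM at least 2, no predicted genes).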

Additional observations from a re-analysis of the deposited data

Results flagged for a closer look

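Of the 32 groups of 4 libraries examined for a library standing apart (gap to the nearest other library over the whole range above 0.829), 2 had one. Chance gives about 1 in 20. Bglap2 in trauma 1 was 2240 CPM where the other 3 trauma libraries held 1507 to 1625 (gap over range 0.839). Bglap3 in ligature 4 was 4.073 CPM where the other ligature libraries held 0.1512 to 0.7417 (0.849).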

How the results depend on the processing

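No called result on osteocalcin changed direction under the alternatives run. Values near 0 did: the sum in trauma against control was 0.02 and became -0.21 with the length trend removed or without control 1, and the difference in Bglap3 share between ligature plus trauma and ligature was 0.0495 percentage points and reached -0.03876 with 1 library left out. For ligature plus trauma against trauma, the sum missed the threshold with DESeq2 size factors (-1.29, edgeR adjusted p = 0.0545), with no expression filter (-1.28, 0.0711) and without the 3 libraries shifted to short transcripts (-1.72, 0.0788), and leaving out 1 library gave -1.49 to -1.09. The cause was not tested. Bglap passed under DESeq2 (-1.17, adjusted p = 0.0233), with only the compared groups (-1.18, 0.0496) and with the length trend removed (-1.36, 0.0226). Bglap2 passed under all 8 settings that kept or jointly dropped libraries, and with 1 library left out it was -1.68 to -1.28 (edgeR adjusted p 0.0151 to 0.093). Left out singly, no library changed another call on an osteocalcin gene or the sum.

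Counts of genes called moved by over 1.5 times. Trauma against control went from 1 to 129 under DESeq2, and to 0 to 3 with 1 library left out (0 without control 4, 3 without control 2 or trauma 1). Ligature plus trauma against trauma went from 1149 to 2179 under DESeq2, to 403 without the 3 libraries and to 565 to 1525 with 1 left out (lowest without ligature plus trauma 3, and under 1149 by over 1.5 times also without ligature plus trauma 2 or 4 or trauma 1 or 3). The comparison with ligature went from 0 to 44 and the interaction from 0 to 64 under DESeq2, the latter to 2 without the 3 libraries and to 0 to 2 with 1 left out.

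With the replicate number as a block, the sum against trauma was -1.34 (edgeR adjusted p = 0.0692) and Bglap2 -1.52 (0.0375). The labels give the numbers no meaning, and deviations of the 24 same-numbered pairs had correlations of -0.16 to 0.22, with 4 above 0.1. Only 4 of 16 libraries correlated best with their own number, so the numbers were not taken as pairs. The block changed no other call on osteocalcin.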
